A study of Mus musculus with 4 samples.

Results

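The ATP-binding cassette (ABC) transporter family was examined in RNA-seq libraries of mouse bone marrow cells. Members were all protein-coding genes whose symbol begins with Abc, a subfamily letter from a to g and a digit, which gave 50 genes of 55401 gene models. There were 16 members in subfamily A, 10 in B, 10 in C, 4 in D, 1 in E, 3 in F and 6 in G. Symbols came from GENCODE, and the choice used no measured value. The 2 Control libraries came from Cpt1a fl/fl mice, and the 2 KO libraries from mice with the same floxed allele plus Vav1-Cre, which is driven by the Vav1 promoter and deletes in blood cells generally and not in stem cells alone. Both groups were adult mice on a C57BL/6 background, 8 to 12 weeks old and of both sexes per the study's methods. The labels name the cells long-term hematopoietic stem cells (LT-HSCs), and the study sorted them after c-Kit bead enrichment and calls them hematopoietic stem and progenitor cells. Cpt1a encodes the enzyme that couples long-chain fatty acids to carnitine for entry into mitochondria, and the comparison asked how its loss alters the transcriptome.

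ABC proteins use ATP to move lipids, sterols, peptides, metals, conjugates or drugs across a membrane. Some carry the whole pump in 1 chain, and others, such as those of peroxisomes and mitochondria, carry a part of it and work as pairs. Subfamilies E and F have no membrane part and act on ribosomes. In blood stem cells, ABCG2 and the ABCB1 proteins are known for pumping out dyes, the property behind the side population, and several mitochondrial members serve heme and iron-sulfur cluster synthesis.

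The libraries held 20589218 and 23291747 expected counts in Control and 34083159 and 33909781 in KO, so both KO libraries were the deeper ones. Levels are given as TPM, which corrects for transcript length, and changes as the log2 fold change (log2FC) of expected counts, KO over Control, with the standard error (SE) of edgeR's quasi-likelihood fit over 14635 genes. CPM is the library-scaled expected count. A gene passed the test at a Benjamini-Hochberg adjusted p under 0.05 over all genes tested, with no fold limit. Cpt1a itself stood at 37.0 and 35.6 TPM in Control and 11.5 and 19.2 TPM in KO, a log2 fold change of -1.60 (SE 0.152, edgeR adjusted p = 0.00695). Its transcript was thus present in KO at 33.1 and 38.1 CPM, against 108 and 105 CPM in Control. Among LT-HSC markers, Hlf, Meis1 and Mecom were present in every library, but Slamf1 reached at most 4.83 TPM and Hoxb5 at most 1.12 TPM. Mecom stood at 17.0 and 28.9 TPM in Control and 12.85 and 13.8 TPM in KO (log2FC -0.78). It did not pass, but DESeq2, an alternative test, called it as lower. Of the 13 LT-HSC markers tested, 5 had a positive log2 fold change, among them Cd48 and Cd34, and 8 a negative one, down to -3.33. Cd48 and Cd34, both low in the strict LT-HSC, were both present. Cd48 stood at 88.0 and 80.3 TPM in Control and 160 and 146 TPM in KO and passed as higher (log2FC 0.83, SE 0.137, edgeR adjusted p = 0.0491). Cd34 stood at 359 and 441 TPM in Control and 490 and 524 TPM in KO and did not pass (log2FC 0.30, SE 0.118, adjusted p = 0.447). The neutrophil precursor gene Mpo stood at 1638 to 2959 TPM in the same libraries.

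Some marker lists of other blood cells differed between the groups, in a comparison where 0.212% of all genes tested passed as lower and 0.451% as higher. Of 13 erythroid markers tested, 8 passed as lower in KO and 0 as higher, and their summed level was 1427 to 1539 TPM in Control and 638 to 692 TPM in KO, with Alas2 at 0 in all 4 libraries. Of 13 B lineage markers, 11 passed as higher in KO, and the sum was 69.1 to 102 TPM in Control and 491 to 713 TPM in KO. Vpreb2 and Ms4a1 were at 0 in Control and met the filter on their KO counts alone. Of 10 mast cell and basophil markers, 4 passed as higher, with sums of 164 to 217 TPM in Control and 514 to 581 TPM in KO. The largest log2 fold change of that list was 13.8, a size reached only with next to no counts in Control. That gene met the filter on its KO counts alone. Of 10 neutrophil markers, 1 passed as lower (Elane), with sums of 8152 to 11858 TPM in Control and 6355 to 6531 TPM in KO. Of 5 T and NK markers tested, 1 passed as higher and 0 as lower. In the remaining lists 0 markers passed, with 9 monocyte and macrophage and 5 dendritic markers tested. The same held for 9 megakaryocyte and platelet and 7 stromal and endothelial markers. In bulk libraries, fewer cells of a type and less RNA per cell cannot be told apart.

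A run of 3 neighbouring genes of subfamily B is shown first, since the result of the family turns on 1 of them. They lie in tandem on the plus strand of chromosome 5 (mm10, GENCODE): Abcb1a (ENSMUSG00000040584.8) at chr5:8660077-8748575, Abcb1b (ENSMUSG00000028970.9) at chr5:8798147-8866315 and Abcb4 (ENSMUSG00000042476.12) at chr5:8893717-8959231, with 49.6 and 27.4 kb between them. The 200 bases that end 20 bases before each RefSeq start (GRCm38.p6, plus strand) are printed here to show how the 3 promoters differ, with capitals marking any match on either strand to 6 motifs. The GC box was searched as GGGCGG, and the letters of the TATA box were TATAAA. The box bound by NF-Y was searched as CCAAT, and the letters of the E box were CACGTG. The site of GATA factors was searched as AGATAA, and that of ETS factors was written as CCGGAA, with matches allowed to overlap. They cover chr5:8566871-8567070 for Abcb1a, chr5:8797927-8798126 for Abcb1b and chr5:8893501-8893700 for Abcb4.
Abcb1a: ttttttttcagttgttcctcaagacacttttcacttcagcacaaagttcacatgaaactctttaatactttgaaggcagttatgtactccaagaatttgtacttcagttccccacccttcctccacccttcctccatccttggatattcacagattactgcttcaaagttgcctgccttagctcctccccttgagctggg
Abcb1b: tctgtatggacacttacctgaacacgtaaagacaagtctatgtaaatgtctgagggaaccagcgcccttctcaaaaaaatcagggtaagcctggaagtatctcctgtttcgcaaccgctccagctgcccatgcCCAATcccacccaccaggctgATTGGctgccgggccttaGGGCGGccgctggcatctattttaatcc
Abcb4: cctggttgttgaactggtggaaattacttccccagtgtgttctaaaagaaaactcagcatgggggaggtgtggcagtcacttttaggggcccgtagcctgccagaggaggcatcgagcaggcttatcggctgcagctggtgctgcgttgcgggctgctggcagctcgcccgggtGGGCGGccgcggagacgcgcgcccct
The Abcb4 window holds 1 GGGCGG, a GC box. The Abcb1b window holds 1 GGGCGG and 2 CCAAT boxes, 1 on each strand, and overlaps an exon of Gm5106. The Abcb1a window holds none of the 6 motifs. Its RefSeq start, chr5:8567091, lies far upstream of its GENCODE start, chr5:8660077. The window therefore does not describe the bases before the GENCODE start of Abcb1a, unlike those of Abcb1b and Abcb4. Over 32851 RefSeq promoter windows of 250 bases, GGGCGG was found in 32.7%, CCAAT in 33.9%, TATAAA in 12.4%, CCGGAA in 12.03%, AGATAA in 9.99% and CACGTG in 6.02%. RefSeq promoters were matched for 38 of the 50 members. A match is a description of letters and not of a bound site.

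Abcb4, the phosphatidylcholine floppase best known from the bile canaliculus, fell in KO and was the only member to pass the test, in a comparison where 0.212% of all genes tested passed as lower. It stood at 107 and 90.2 CPM in Control and 41.6 and 42.2 CPM in KO, with 2205, 2100, 1417 and 1430 counts in the same order. In TPM it stood at 39.3 and 42.0 in Control and 17.8 and 15.7 in KO. The groups did not overlap on either scale, and Control was 2.37-fold higher by the fit. The log2 fold change was -1.25 (SE 0.151, 95% interval -1.60 to -0.90, edgeR adjusted p = 0.0136). The gene no longer passed when KO replicate 1 was left out (adjusted p = 0.0556), in the fit with effective length as an offset (0.132) and in limma on log2(TPM + 1) (0.324), while the log2 fold change stayed between -1.35 and -1.13 in every alternative run.

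Abcb1b, which encodes 1 of the 2 mouse P-glycoproteins, the drug and dye pumps, stood at 42.4 and 50.6 CPM in Control and 48.5 and 59.7 CPM in KO. These groups overlapped. The log2 fold change was 0.21 (SE 0.198, 95% interval -0.25 to 0.66, edgeR adjusted p = 0.817). In TPM the order was the other way, 27.3 and 30.1 in Control and 22.2 and 26.4 in KO, where RSEM gave the gene an effective length of 2138 and 2305 bases in Control and 3070 and 3152 bases in KO. Its direction therefore depended on the scale, and neither scale passed. Abcb1a, the other P-glycoprotein gene, stood at 1.03 and 0.590 TPM in Control and 0.340 and 0.350 TPM in KO, on only 38.4 to 50.3 counts a library (log2FC -0.98, SE 1.34, edgeR adjusted p = 0.907). Of the 50-base words in its transcripts 17.6% also occur in other genes, most of them in Abcb1b, so reads can be divided between the pair, and the opposite-strand gene Gm42686 covers 10.1% of its exon bases. Summed as 1 feature, Abcb1a and Abcb1b stood at 44.9 and 52.6 CPM in Control and 49.6 and 60.9 CPM in KO (log2FC 0.17, SE 0.193, 95% interval -0.28 to 0.61, edgeR adjusted p = 0.874). Abcb1a gave 3.88% to 5.44% of the summed counts in Control and 1.94% to 2.27% in KO.

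Within each library, the ratio of Abcb4 to its neighbour Abcb1b was 1.44 and 1.39 in Control and 0.798 and 0.596 in KO on the TPM scale. Abcb4 was thus the more abundant of the pair per length in both Control libraries and the less abundant in both KO libraries. On counts the ratio was 2.52 and 1.78 in Control and 0.858 and 0.706 in KO. The exact permutation test, two-sided, gave p = 0.333 on both scales, the smallest that 2 libraries against 2 allow.

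**Figure D1:**
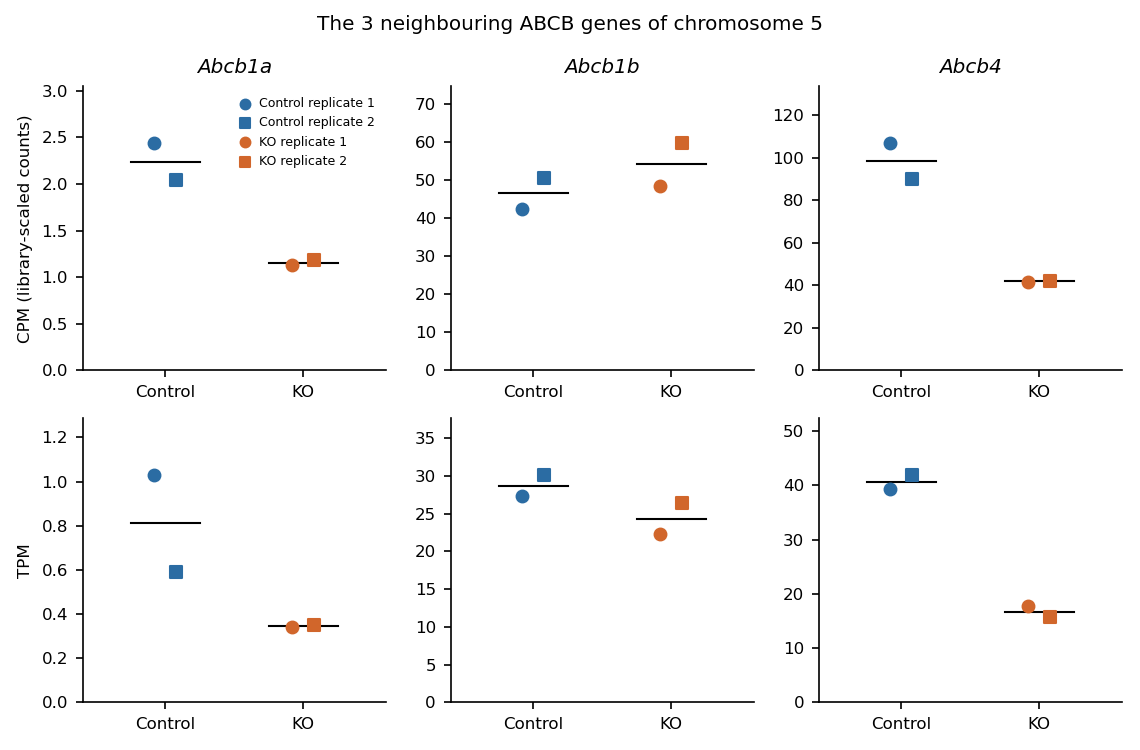
Abcb1a, Abcb1b and Abcb4 in each library, as CPM (upper row) and TPM (lower row), each axis starting at 0. Points are libraries (circles replicate 1, squares replicate 2, blue Control, orange KO) and lines are group means. Abcb4 lies at 90.2 to 107 CPM in Control and 41.6 to 42.2 CPM in KO, while Abcb1b overlaps between groups in CPM.

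Over the family, 34 of the 50 members had enough counts to be tested, and 32 had a count in all 4 libraries. Of the rest, 15 had no count in any library: Abca8a, Abca8b, Abca12, Abca14, Abca15, Abca16, Abca17, Abcb5, Abcb11, Abcc6, Abcc8, Abcc9, Abcc12, Abcg5 and Abcg8. A count of 0 allows up to 3 counts, or 0.0880 to 0.146 CPM a library. These include the bile salt pump (Abcb11), the sterol pair of the gut and liver (Abcg5 and Abcg8) and the sulphonylurea receptors (Abcc8 and Abcc9). Abcc2, the conjugate exporter of the bile canaliculus, had 72 and 0 counts in Control and 5 and 0 in KO and was not tested.

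One member passed as lower, Abcb4, and 0 as higher, where 0.212% and 0.451% of all 14635 genes did. At an unadjusted p under 0.05, 7 members were lower (Abcb4, Abcb10, Abcg4, Abca13, Abca3, Abcb6 and Abcc5) and 0 higher, where 4.61% and 5.81% of all genes tested were. DESeq2, on 35 members with an adjusted p, called 6 as lower (the same without Abcc5) and 0 as higher. It called 3.24% of all its genes as lower, and its share called higher was not taken. Without Control replicate 2 the log2 fold change was -1.35 for Abcb4, -2.54 for Abcg4 and -1.91 for Abca13. Without KO replicate 1 it was -1.23, -1.79 and -1.36 in the same order. Both KO libraries lay under both Control libraries in CPM for 12 of 34 members and over them for 3, against 18.3% and 23.6% of all genes tested. The median log2 fold change was -0.08 over the 34 members and 0.01 over all genes tested, and 20 members had a negative and 14 a positive value. The median of the members was -0.34 without Control replicate 2.

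By subfamily, the median log2 fold change was -0.03 in A (9 tested), -0.38 in B (8), 0.01 in C (5), 0.15 in D (4), -0.15 for the 1 gene of E, -0.10 in F (3) and -0.77 in G (4). Summed TPM over B was 193 and 181 in Control and 121 and 136 in KO. Of these sums, Abcb6 gave 47.2 and 30.9 TPM in Control and 6.08 and 12.6 TPM in KO. Its effective length was 685 and 967 bases in Control and 2711 and 1489 bases in KO. Summed TPM over G was 69.2 and 75.6 in Control and 47.5 in both KO libraries. Summed TPM over D was 74.7 and 76.2 in Control, with 20.5 TPM of the second value from Abcd2, and 73.3 and 69.2 in KO. The sums over A, C, E and F overlapped between the groups. Taken over the 50 members, ABC transcripts made up 0.214% to 0.235% of the counts in Control and 0.203% to 0.206% in KO.

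**Figure D2:**
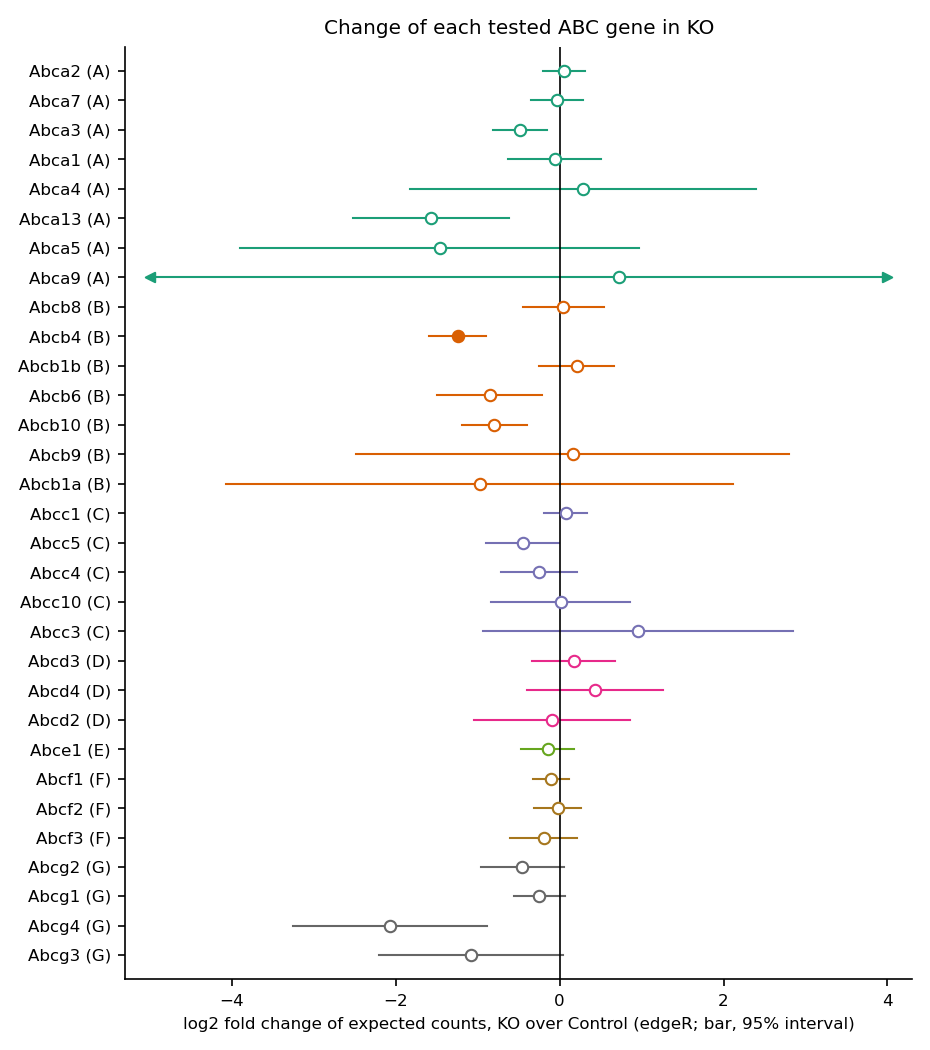
Log2 fold change of expected counts, KO over Control, for 31 of the 33 tested members with a count in both groups, ordered by subfamily and then by mean TPM. Bars are 95% intervals of the edgeR fit, arrowheads mark an interval that runs past the axis, and a filled point marks an adjusted p under 0.05. Abcb4 alone is filled, at -1.25.

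The soluble proteins of subfamilies F and E, which work in translation, took 4 of the 5 highest places by mean TPM, and Abca2 of subfamily A took the other. Abcf1, a factor of translation initiation, was the highest of the family, at 268 and 158 TPM in Control and 151 and 159 TPM in KO. Its high value in Control replicate 1 went with an effective length of 1612 bases there, against 2565 to 2604 bases in the other libraries, and in CPM it stood at 314 and 296 in Control and 279 and 294 in KO (log2FC -0.10, SE 0.0949, edgeR adjusted p = 0.812). Abce1, which splits ribosomes after termination, stood at 103 and 76.9 TPM in Control and 86.1 and 84.3 TPM in KO (log2FC -0.15, 95% interval -0.47 to 0.18). Abcf2 lay between 70.8 and 80.5 TPM in all 4 libraries (95% interval of its log2FC -0.31 to 0.26). Abcf3, a relative of the yeast Gcn20 protein, stood at 79.4 and 38.2 TPM in Control and 47.0 and 53.8 TPM in KO. The intervals of Abce1, Abcf1, Abcf2 and Abcf3 each included 0. Subfamily F held 33.9% of the family's mean TPM and E 9.45%. Of 12 tested partners in ribosome recycling and translation, 0 passed in edgeR, 0 had an unadjusted p under 0.05 and DESeq2 called 0. The smallest p was that of Pelo, the stalled-ribosome rescue factor, at 17.9 and 19.8 TPM in Control and 29.2 and 25.7 TPM in KO (edgeR adjusted p = 0.536), followed by Eif3j2 (adjusted p = 0.697).

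**Figure D3:**
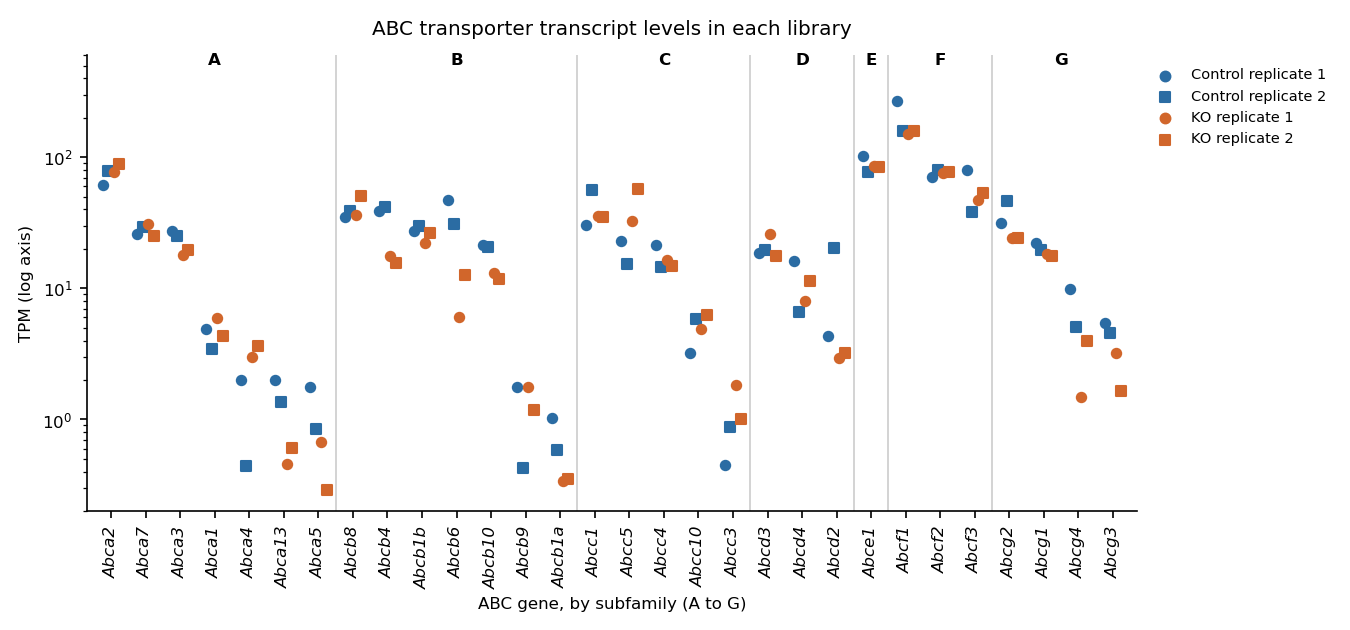
TPM of 30 of the 32 members with a count in all 4 libraries, on a log axis, grouped by subfamily A to G and ordered by mean TPM within each. Each gene has 4 points, 1 for each library (circles replicate 1, squares replicate 2, blue Control, orange KO). Abcf1 is highest, at 151 to 268 TPM, and Abcb4 lies at 39.3 to 42.0 TPM in Control and 15.7 to 17.8 TPM in KO.

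Among the mitochondrial transporters, Abcb10, an inner membrane protein needed for heme synthesis in red cell precursors (ENSMUSG00000031974.8, chr8:123952459-123983122, minus strand), stood at 63.0 and 61.4 CPM in Control and 37.6 and 34.6 CPM in KO. Its effective length was 4044 to 4051 bases in every library, so TPM gave the same picture, 21.4 and 20.9 in Control and 13.1 and 11.9 in KO. The groups did not overlap and replicates lay close together, but the gene did not pass (log2FC -0.80, SE 0.171, 95% interval -1.19 to -0.40, edgeR adjusted p = 0.144). DESeq2 called it (adjusted p = 1.11e-06). An opposite-strand gene, Gm45890, covers 10.3% of its exon bases, and reads of the 2 cannot be told apart if counting ignored strand.

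Abcb6, a transporter tied to porphyrin transport, stood at 47.2 and 30.9 TPM in Control and 6.08 and 12.6 TPM in KO. The counts differed less, at 23.5 and 21.8 CPM in Control and 11.7 and 13.5 CPM in KO (log2FC -0.85, SE 0.276, edgeR adjusted p = 0.358). Effective length was 685 and 967 bases in Control and 2711 and 1489 bases in KO. Abcb6 shares 55.2% of its exon bases, on the same strand, with the gene model Gm29253, which was given 289 and 181 counts in Control and 0 in both KO libraries. Summed with it, Abcb6 stood at 37.6 and 29.6 CPM in Control and 11.7 and 13.5 CPM in KO (log2FC -1.42, SE 0.260, edgeR adjusted p = 0.0749), so the value of Abcb6 depended on how RSEM divided reads between the 2 models.

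Abcb8, another transporter of the mitochondrial membrane, stood at 35.1 and 39.2 TPM in Control and 36.4 and 50.8 TPM in KO (95% interval of its log2FC -0.45 to 0.54). Its groups overlapped. Of 11 tested iron and heme partners, 0 passed in edgeR, 6 had an unadjusted p under 0.05, all lower in KO, and DESeq2 called 4 as lower and 0 as higher, against 4.61% and 3.24% of all genes that were lower by these 2 rules. Their median log2 fold change was -0.44. Glrx5, a glutaredoxin of iron-sulfur cluster assembly, had the smallest p (log2FC -0.77, SE 0.183, edgeR adjusted p = 0.200), followed by Alas1, the first enzyme of heme synthesis (-0.56, SE 0.138, adjusted p = 0.215). Slc25a37, the mitochondrial iron importer that binds ABCB10, stood at 37.1 and 36.0 TPM in Control and 40.8 and 32.3 TPM in KO. The erythroid marker sum moved the same way as Abcb10 and Abcb6, at 1427 to 1539 TPM in Control and 638 to 692 TPM in KO, and its part in these values was not tested.

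**Figure D4:**
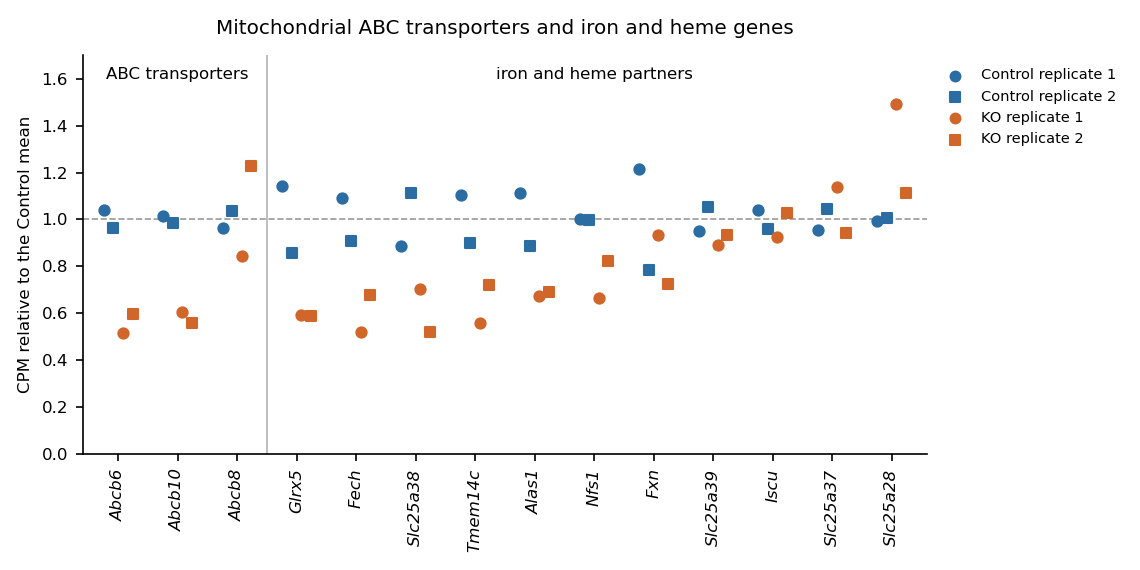
CPM relative to the Control mean for 3 mitochondrial ABC transporters (left) and the 11 tested iron and heme partners (right), on an axis that starts at 0. Each gene has 4 points, 1 for each library, and the dashed line marks the Control mean. For Abcb6 and Abcb10 both KO libraries lie under both Control libraries, while the groups overlap for Abcb8.

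The peroxisomal transporters import fatty acyl chains for shortening, the route that serves very long chains, which CPT1A does not handle. Neither of the 2 described here, Abcd2 and Abcd3, passed in edgeR or DESeq2, and 0 had an unadjusted p under 0.05. Abcd3, which carries branched chains and bile acid precursors, stood at 18.6 and 19.5 TPM in Control and 26.2 and 17.6 TPM in KO (log2FC 0.17, SE 0.221, 95% interval -0.34 to 0.68, edgeR adjusted p = 0.897). Its high value was that of KO replicate 1, without which the log2 fold change was -0.13. Abcd2, an importer of very long and polyunsaturated chains, stood at 4.32 and 20.5 TPM in Control and 2.97 and 3.22 TPM in KO. The value of 20.5 TPM came with the fewest counts: 341, 193, 379 and 414 counts were given effective lengths of 5277, 556, 5273 and 5270 bases in the same order. In CPM Abcd2 stood at 16.6 and 8.29 in Control and 11.1 and 12.2 in KO (log2FC -0.10, SE 0.410, 95% interval -1.04 to 0.85). Its log2 fold change was 0.47 without Control replicate 1. The intervals of Abcd2 and Abcd3 both included 0.

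Of 11 tested genes for peroxisome import and very-long-chain oxidation, 0 passed in edgeR, 0 were called by DESeq2 and 1 had an unadjusted p under 0.05, Ehhadh, a bifunctional enzyme of the peroxisomal pathway, at 2.21 and 5.07 TPM in Control and 1.29 and 1.24 TPM in KO (log2FC -1.57, SE 0.672, edgeR adjusted p = 0.474). Of all genes tested, 4.61% were lower at that unadjusted p.

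Abcd4, which exports cobalamin from the lysosome despite its place in subfamily D, stood at 11.7 and 9.62 CPM in Control and 11.7 and 17.1 CPM in KO (log2FC 0.43, SE 0.359, 95% interval -0.40 to 1.26). In TPM it was 16.2 and 6.60 in Control and 7.98 and 11.4 in KO, and the direction of the mean turned with the scale. Of 5 tested cobalamin partners, 0 passed in edgeR, 0 had an unadjusted p under 0.05 and DESeq2 called 0. Lmbrd1, its partner in the lysosomal membrane, had the smallest p, at 15.8 and 10.5 TPM in Control and 9.12 and 21.8 TPM in KO (edgeR adjusted p = 0.616), and Mmadhc the next (0.862). Of the 4 lysosomal ABC genes, Abca2, the most abundant of subfamily A, stood at 61.3 and 79.2 TPM in Control and 77.5 and 89.6 TPM in KO (log2FC 0.05, SE 0.111), while Abca5 and Abcb9 reached at most 1.78 TPM. None of the 4 passed in edgeR or DESeq2, and 0 had an unadjusted p under 0.05.

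In subfamily G all 4 tested members lay lower in both KO libraries than in both Control libraries, in CPM and in TPM, and 0 passed in edgeR. Of all 14635 genes tested, 18.3% lay lower in this way in CPM and 2455 genes in TPM. Abcg2, the dye and urate pump of the side population (ENSMUSG00000029802.13, chr6:58584523-58695676, plus strand), stood at 31.8 and 46.2 TPM in Control and 24.4 and 24.2 TPM in KO. In CPM it stood at 40.8 and 39.5 in Control and 25.9 and 33.0 in KO (log2FC -0.46, SE 0.219, 95% interval -0.96 to 0.05, edgeR adjusted p = 0.527). The interval reached just past 0. The spread of Abcg2 in TPM went with effective lengths of 1764 and 1174 bases in Control and 1498 and 1895 bases in KO. Abcg4, a sterol exporter, stood at 23.4 and 10.1 CPM in Control and 3.17 and 4.84 CPM in KO (log2FC -2.07, SE 0.512, 95% interval -3.25 to -0.88, edgeR adjusted p = 0.219). The Control replicates stood apart from each other, and the log2 fold change of Abcg4 was -2.54 without Control replicate 2 and -1.35 without Control replicate 1. DESeq2 called Abcg4 as lower (adjusted p = 8.90e-04). Abcg1, which hands cholesterol to high-density lipoprotein, stood at 22.1 and 19.8 TPM in Control and 18.5 and 17.6 TPM in KO (log2FC -0.25, SE 0.134, edgeR adjusted p = 0.574), and Abcg3 at 5.41 and 4.59 TPM in Control and 3.19 and 1.66 TPM in KO (-1.09, SE 0.486, adjusted p = 0.496).

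In subfamily A the sterol exporter Abca1 stood at 4.90 and 3.47 TPM in Control and 5.98 and 4.34 TPM in KO (log2FC -0.06, SE 0.246), and Abca7, a phospholipid exporter, lay between 25.3 and 31.0 TPM in every library. Abca3, which loads surfactant phospholipid into lamellar bodies in the lung, stood at 27.3 and 25.2 TPM in Control and 17.95 and 19.65 TPM in KO. An opposite-strand gene, D330041H03Rik, covers 9.75% of its exon bases. Its groups did not overlap (log2FC -0.49, SE 0.143, 95% interval -0.82 to -0.16, edgeR adjusted p = 0.304). Abca13, the longest protein of the subfamily, stood at 22.8 and 13.0 CPM in Control and 5.13 and 6.96 CPM in KO (log2FC -1.57, SE 0.412, edgeR adjusted p = 0.246). Its log2 fold change was -1.91 without Control replicate 2 and -1.12 without Control replicate 1. The neutrophil marker sum was also lower in KO, at 8152 to 11858 TPM in Control and 6355 to 6531 TPM in KO, and its part in the Abca13 value was not tested. Abca6 had 0 counts in both Control libraries and 12 and 29 in KO, so it met the filter on its KO counts alone. Its pooled KO rate was 8.82 times a floor of 3 counts over the Control group, with no allowance for error in KO. Abca6 did not pass (edgeR adjusted p = 0.563). Of 7 tested lipid and sterol exporters of subfamilies A and G, 0 passed in edgeR, 2 were lower at an unadjusted p under 0.05 (Abcg4 and Abca3), and DESeq2 called these 2. Of all genes, 4.61% and 3.24% were lower by these 2 rules. Of the 16 genes of the liver X receptor sterol pathway, which include Abca1 and Abcg1, 0 passed in edgeR. At an unadjusted p under 0.05, 2 were lower and 1 higher, where 4.61% and 5.81% of all genes tested were. DESeq2 called 2 as lower, against 3.24% of all its genes. Srebf1, the lipogenic regulator, stood at 107 and 65.9 TPM in Control and 43.7 and 35.2 TPM in KO. Its effective length was 1643 and 2820 bases in Control and 3327 and 3835 bases in KO. The counts of Srebf1 differed less, at 128 and 135 CPM in Control and 103 and 97.2 CPM in KO (log2FC -0.41, SE 0.118, edgeR adjusted p = 0.297). Mylip, which degrades the LDL receptor, had the next smallest p (-0.61, SE 0.215, adjusted p = 0.408).

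In subfamily C the glutathione conjugate exporter Abcc1 had the highest mean TPM over the 4 libraries, at 30.3 and 56.2 TPM in Control and 35.4 and 35.2 TPM in KO. Its counts were steadier, at 128 to 145 CPM in all libraries (log2FC 0.07, SE 0.113, 95% interval -0.19 to 0.33). Abcc5, an exporter of cyclic nucleotides and other organic anions, moved in opposite directions on the 2 scales. It stood at 76.1 and 54.1 CPM in Control and 48.9 and 46.7 CPM in KO (log2FC -0.45, SE 0.195, 95% interval -0.90 to -0.00331, edgeR adjusted p = 0.475). In TPM it stood at 22.9 and 15.3 in Control and 32.9 and 57.0 in KO, where its mean was above that of Abcc1, and groups did not overlap on either scale. Its effective length was 4570 and 4844 bases in Control and 2097 and 1139 bases in KO. Abcc3, a liver and gut exporter of glucuronides, stood at 0.450 and 0.880 TPM in Control and 1.84 and 1.01 TPM in KO (log2FC 0.96, SE 0.817, edgeR adjusted p = 0.779). Abcc4, an exporter of cyclic AMP, stood at 21.6 and 14.6 TPM in Control and 16.6 and 15.0 TPM in KO. Of the 8 tested genes for drug and organic anion export, which span subfamilies B, C and G, 0 passed in edgeR and DESeq2 called 0. At an unadjusted p under 0.05, 1 was lower (Abcc5), where 4.61% of all genes tested were. Of 11 tested xenobiotic receptors and regulators, 0 passed in edgeR and 2 were higher at an unadjusted p under 0.05, where 5.81% of all genes tested were. DESeq2 called the same 2 as higher, and its share of all genes called higher was not taken. The first was Foxo3, a stress-response factor, at 36.8 and 37.1 TPM in Control and 49.4 and 55.2 TPM in KO (log2FC 0.50, SE 0.109, edgeR adjusted p = 0.156). The other was Pparg, at 0 in Control and 1.23 and 3.42 TPM in KO, which met the filter on its KO counts alone. The pregnane X and constitutive androstane receptor genes Nr1i2 and Nr1i3 had no count in any library.

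The choice between counts and TPM mattered for the family. For 7 of the 34 tested members the log2 fold change of counts and the difference of mean TPM had opposite signs: Abca1, Abca7, Abcb1b, Abcc1, Abcc5, Abcd4 and Abcf2. RSEM's effective length differed more than 1.5 times between libraries for 15 of the 34. It differed by 1.3 times or less for 16, among them Abcb4, Abcb10, Abca3 and Abca13.

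**Figure D5:**
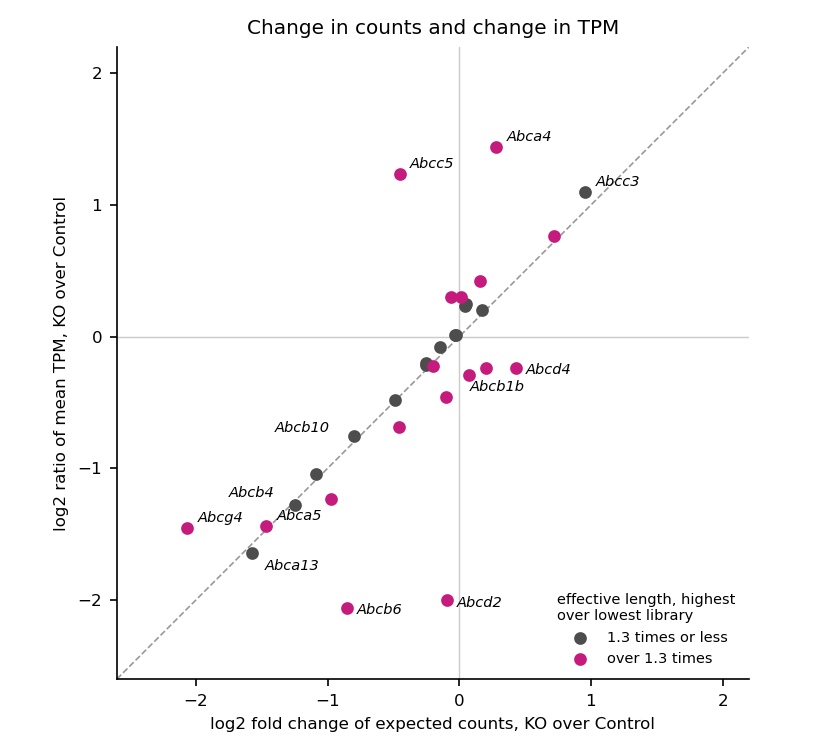
Log2 fold change of expected counts (horizontal) against the log2 ratio of mean TPM (vertical), KO over Control, for 31 of the 33 tested members with a count in both groups. Colour marks how far RSEM's effective length differed between libraries, and the dashed line marks equal change. Abcc5 lies at -0.45 on counts and 1.23 on TPM and Abcb6 at -0.85 and -2.06, while Abcb4 lies close to the line.

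A further 3 ABC genes whose symbols do not begin with Abc were looked at beside the family. Tap1 and Tap2, the paired subunits of the peptide transporter that feeds class I antigen presentation, had a higher mean TPM than all members but Abcf1. Tap1 stood at 104 and 110 TPM in Control and 137 and 175 TPM in KO, the KO libraries being higher (log2FC 0.39, SE 0.110, edgeR adjusted p = 0.289, called by DESeq2). Tap2 stood at 139 and 131 TPM in Control and 127 and 122 TPM in KO (log2FC -0.17, SE 0.0945). Cftr, the chloride channel, had no count in Control and stood at 0.270 TPM in both KO libraries. None of the 3 passed in edgeR, and 1, Tap1, had an unadjusted p under 0.05, where 5.81% of all genes tested were higher.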

How the data were processed

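RNA-seq was made from polyadenylated RNA of sorted cells, 2 libraries a group, with a directional kit per the labels. The study's text gives a different number of samples a group for RNA-seq, and the labels' number was used. STAR, RSEM and mm10 are credited to the submitters' processing notes. Versions, and the use of strand in counting, were not given in sources used here. The deposited expected counts, RSEM's estimates per gene, were not normalized and were rounded for testing. The deposited TPM, scaled by the authors' run of RSEM to length and depth, gave levels. RSEM's effective length, which varies with its division of reads among isoforms, links both units. Symbols and positions came from GENCODE M21.

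Genes were tested with edgeR 4.0.16 under R 4.3.3, by its quasi-likelihood F test (robust, TMM factors 0.985 to 1.01, genotype as the only term, filterByExpr at a minimum count of 10), two-sided, with Benjamini-Hochberg adjustment over 14635 genes. The fit was tested on data simulated with less variation between replicates than these libraries had. That test does not show how the fit performs at their variation. The biological coefficient of variation of these libraries was 0.471. DESeq2 1.42.0 (no fold limit), limma 3.58.1 and other settings were alternatives. Nothing in the labels ties replicates to separate animals. The p-values therefore rest on differences among libraries that may be technical. Floors cover counting error only.

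Genes were named by rule: Abcb4, Abcg2, both Abcb1 genes, the subfamily D genes, members with an unadjusted p under 0.05, the highest and the most changed of each subfamily, the 10 of highest TPM, and up to 2 of each context list by p. Other genes named were chosen after their values were seen. The members and lists were chosen with earlier results of these data known. Single-gene results of some members and list genes are not reported here.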

Additional observations from a re-analysis of the deposited data

How the results depend on the processing

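No member passed as higher in KO under any of the 13 alternatives run. The count passing as lower, 1 in the main test, was 6 with DESeq2, 2 without the filter on low counts, 0 with effective length as an offset, 0 in limma on log2(TPM + 1) and 0 in limma on log2(TPM + 0.1). It ranged from 0 to 3 when 1 library was left out, being 0 without KO replicate 1 and 3 without Control replicate 2. The median log2 fold change of the tested members, -0.08, was -0.22 with effective length as an offset and -0.336 to -0.0551 when 1 library was left out. Deviations of libraries with the same replicate number were not correlated (-0.02 across 14635 genes), a single value that does not settle whether libraries were paired. With the replicate block 1 member passed as lower, Abcb4, with a median of -0.04. The cause of these differences was not tested, except that an offset or TPM brings in RSEM's effective length.

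Of 23 named members, 10 changed direction under some alternative, all with main adjusted p of 0.475 or more. With effective length as an offset, in limma on log2(TPM + 1) and in limma on log2(TPM + 0.1), the log2 fold change was -0.26, -0.24 and -0.24 for Abcb1b, -0.31, -0.22 and -0.22 for Abcc1, 1.22, 1.17 and 1.204 for Abcc5, and -0.24, -0.12 and -0.12 for Abcd4. For Abcf2 it was 0.0191 and 0.0193 in the limma fits. Leaving out 1 library gave -0.0413 to 0.159 for Abca2, -0.26 to 0.29 for Abcb8, -0.50 to 0.47 for Abcd2, -0.13 to 0.42 for Abcd3, -0.336 to 0.0757 for Abce1 and -0.122 to 0.0888 for Abcf2. With 1 library left in a group, that library was assumed to vary like the other group. The planned sum of Abca8a and Abca8b was not run, since both had no counts. The sum of Abcb6 with Gm29253, and the ratio of Abcb4 to Abcb1b with its count version, were added after seeing the data. The 95% interval of Abcb1a, on 38.4 to 50.3 counts a library, ran from -4.07 to 2.12, so the direction of its change was not resolved.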
